A study of Mus musculus with 6 samples.

Results

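The Cyp4 genes encode cytochrome P450 enzymes that hydroxylate fatty acids at the far (omega) end of the chain. Their kidney mRNA levels were compared between wild-type (WT) and Selenbp1-KO mice. The members were the 10 Cyp4 genes Cyp4a10, Cyp4a12a, Cyp4a12b, Cyp4a14, Cyp4a31, Cyp4b1, Cyp4f13, Cyp4f14, Cyp4f15 and Cyp4v3, and every probe that the array annotation assigns to one of these names was taken, which gave 14 of the 56605 probes. All 6 animals were male C57BL/6J mice aged 8 weeks that had been fasted for 20 h, and there were 3 WT and 3 Selenbp1-KO kidneys, each on its own one-color Agilent array. WT mice were purchased, whereas the Selenbp1-KO mice came from a line made earlier, so the genotype and the origin of the animals cannot be told apart. Fasting was common to both groups, and no fed animals were measured on these arrays. The replicate numbers are those of the sample titles, 2, 3 and 4 for WT and 1, 2 and 3 for Selenbp1-KO, and the p-values measure the spread between these 6 samples.

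Omega-hydroxylation turns a fatty acid into a hydroxy acid, which alcohol and aldehyde dehydrogenases oxidize to a dicarboxylic acid, and peroxisomes then shorten that acid by beta-oxidation. The same reaction on arachidonic acid yields 20-HETE, a lipid that constricts renal vessels and affects salt transport. In mice, Cyp4a10 and Cyp4a14 are classic targets of Ppara, the nuclear receptor for fatty acids that acts with Rxra and is active in fasting. Cyp4a12a is known as the main 20-HETE-forming enzyme of the mouse kidney and is androgen-dependent and higher in males, and Cyp4a12b is its close neighbor. Cyp4f enzymes act on leukotrienes as well as on long fatty acids.

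The probes decide which of these close relatives a signal can come from, so those on which the results turn are shown first, as the last 30 bases of the Cyp4a12a, Cyp4a12b and one of the Cyp4a31 probes and the whole 60 bases of a second pair. In the first set capitals mark AATAAA, the hexamer of a polyadenylation signal.
Cyp4a12a: aacctaacagagaccttccctgactgtcac
Cyp4a12b: tcttccccacAATAAAgttcataatgtggc
Cyp4a31 at base 2441: ccctcctttctgcAATAAAggtccaagtgt
The Cyp4a12a probe starts at base 2259 of its target (NM_177406, mm9 chr4:115005258-115005317, plus strand). The Cyp4a12b probe starts at base 2335 (NM_172306, mm9 chr4:115111580-115111639, plus strand). The longest run that the Cyp4a12a and Cyp4a12b probes shared was 6 bases, so they read different stretches. The array annotation nevertheless lists transcripts of both Cyp4a12a and Cyp4a12b for the Cyp4a12a probe and only Cyp4a12b for the other, so neither signal is specific to Cyp4a12a. The hexamer was in 2 of the 14 member probes and in 9.77% of all probes.

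In the second pair capitals mark the bases that are identical where the end of the upper probe aligns with the start of the lower one.
Cyp4a31 at base 736: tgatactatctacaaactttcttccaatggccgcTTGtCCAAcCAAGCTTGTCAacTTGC
Cyp4a10 at base 782: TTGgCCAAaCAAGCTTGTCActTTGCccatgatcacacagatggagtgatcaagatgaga
Of the 26 bases in this overlap, 22 were identical. The annotation lists Cyp4a31 and Cyp4a10 for the upper probe (mm9 chr4:115242872-115242931), and Cyp4a10 and Cyp4a32 for all 3 probes named Cyp4a10. In all, 5 of the 14 member probes list transcripts of several genes, against 2.63% of the array's probes that list a RefSeq transcript, and their values are uncertain between those relatives. The 9 probes of the Cyp4a genes and Cyp4b1 lie together on chromosome 4, the 4 Cyp4f probes on chromosome 17 and the Cyp4v3 probe on chromosome 8.

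Selenbp1, the targeted gene, differed by −2.96 on the log2 scale between Selenbp1-KO and WT kidneys, and each array matched its label. From 51.8% to 55.5% of the spots on an array were well above background. All 6 arrays were on 1 slide, where WT replicates 2 and 3 were in one part and WT replicate 4 and all Selenbp1-KO replicates in the other. The level of a probe is given as the log2 of its signal over the 75th percentile of the array, so that 0 is that percentile. Values are given in the order of the replicate numbers. A probe was called different at an unadjusted p under 0.05 in limma, the threshold of the study's methods. Of 56097 probes tested, 7.98% were called, 1.51% lower and 6.47% higher in Selenbp1-KO mice, and 81.1% of the calls were thus higher. This share was 53.8% after quantile normalization, 95.4% after normexp background correction and 93.6% with median scaling. The median difference was 0.11 over all tested probes and 0.003 over 28515 bright probes, those well above background on all arrays of WT, of Selenbp1-KO or of both.

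Among the Cyp4 genes, Cyp4a12a and Cyp4a12b were lower in Selenbp1-KO than in WT kidneys, at 0.686 and 0.675 of the WT signal. The other 12 probes, for 8 genes, had overlapping groups and were not called. Their differences ran from −0.26 to 0.51 on the log2 scale. Of the 14 probes, 2 were called, both lower in Selenbp1-KO mice, and the same 2 had groups that did not overlap. Of all tested probes, 13.3% had groups that did not overlap, and in 4.06% the Selenbp1-KO arrays were the lower ones. None of the 14 passed a Benjamini-Hochberg adjusted p under 0.05 in limma (lowest adjusted p = 0.279), nor in the methods' t-test, and 0.00357% of all tested probes did. The median difference over the 14 probes was −0.14, beside 0.11 over all tested probes, with 8 probes lower and 6 higher.

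**Figure D1:**
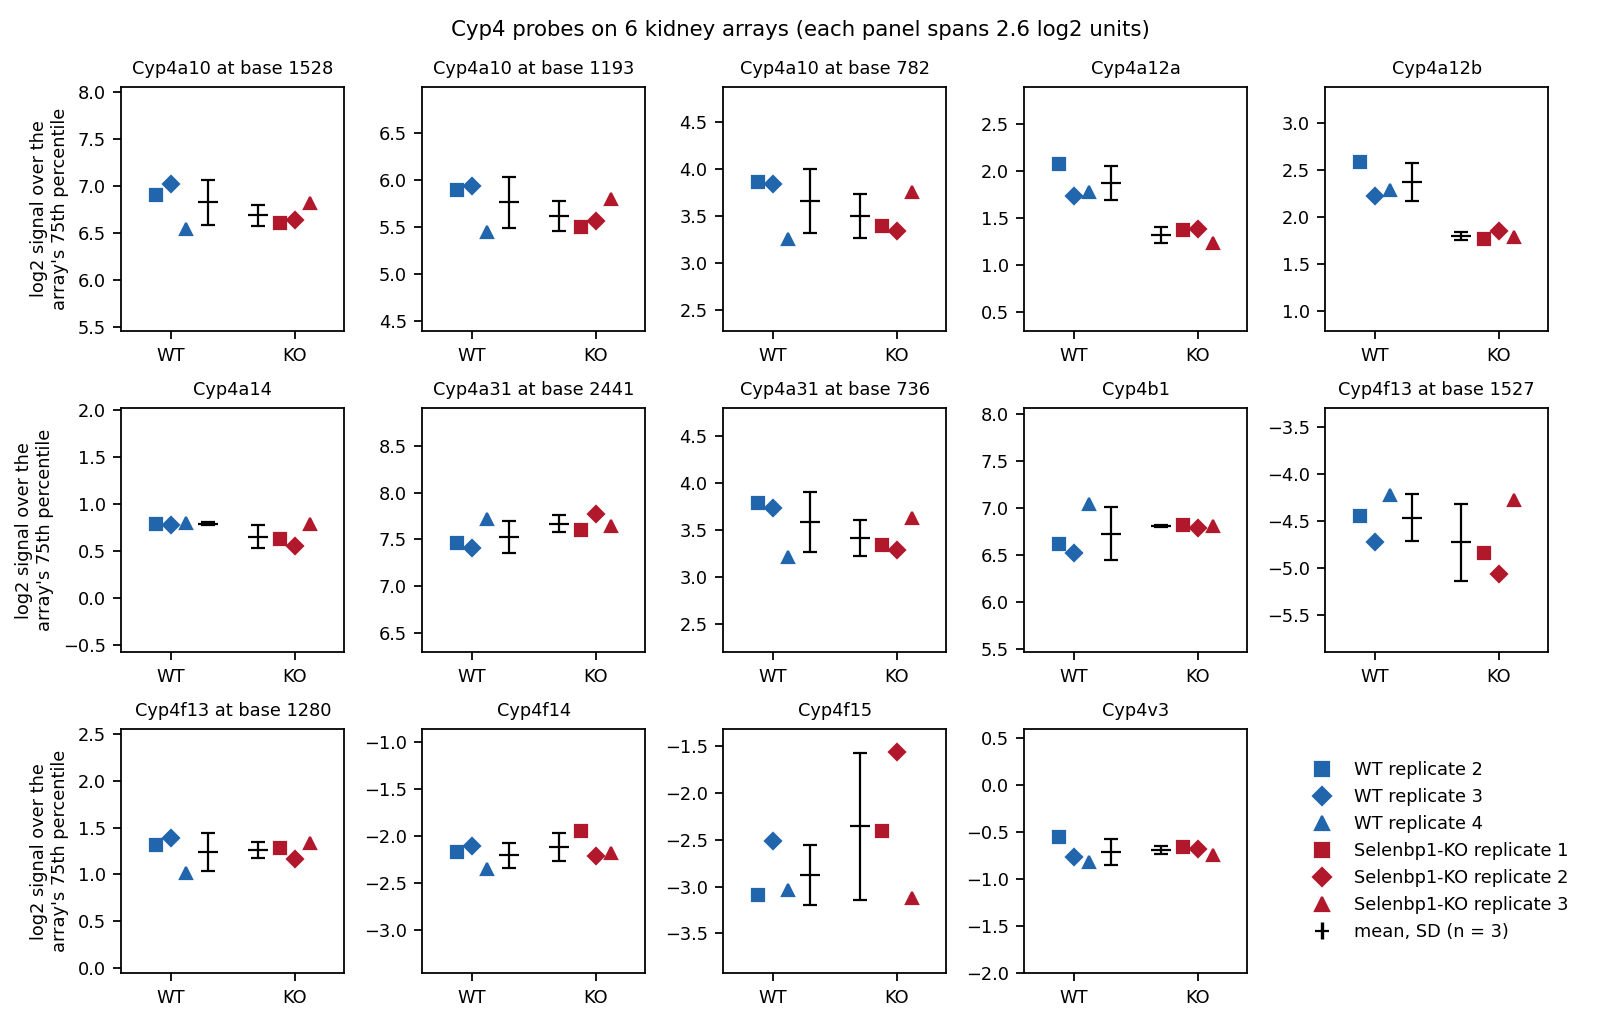
Level of each Cyp4 probe on each array as log2 signal over the array's 75th percentile (vertical axis), with WT replicates in blue and Selenbp1-KO replicates in red; black marks give the mean and SD of 3 arrays. The groups are apart for Cyp4a12a and Cyp4a12b and overlap for the other 12 probes.

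The Cyp4a12a probe read 2.08, 1.74 and 1.78 in WT kidneys and 1.37, 1.38 and 1.23 in Selenbp1-KO kidneys. WT replicate 2 was the highest array, and every Selenbp1-KO array was below every WT array. The means were 1.87 ± 0.18 in WT and 1.32 ± 0.084 in Selenbp1-KO mice (SD, n = 3). The log2 difference was −0.54 (standard error 0.13, 95% confidence interval −0.86 to −0.23, limma adjusted p = 0.279), past the unadjusted threshold. As a fold this is 0.686 of WT, with an interval of 0.551 to 0.855.

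The Cyp4a12b probe showed the same array order among the top 4 arrays. It read 2.59, 2.22 and 2.29 in WT kidneys and 1.77, 1.85 and 1.79 in Selenbp1-KO kidneys. The Selenbp1-KO arrays lay within a narrow range below all WT arrays. The difference was −0.57 (standard error 0.13, 95% confidence interval −0.88 to −0.25, limma adjusted p = 0.279), also past the unadjusted threshold. Across the 6 arrays the 2 probes had a Pearson r of 0.987, given as a description, since they share the arrays and one may read transcripts of the other. Of the 28515 bright probes, 1.15% had a difference at or below that of Cyp4a12a. In whole kidney RNA, fewer cells that express a gene and less of its RNA per cell cannot be told apart.

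Both calls held in each of the 17 processing alternatives, with a difference from −0.61 to −0.44 for Cyp4a12a and from −0.64 to −0.46 for Cyp4a12b. With the slide part as a block the differences were −0.46 and −0.49 (limma adjusted p = 0.768 and 0.728), just past the unadjusted threshold. Within the part that held both genotypes, WT replicate 4 read 1.78 for Cyp4a12a against 1.23 to 1.38 in the Selenbp1-KO arrays, and 2.29 for Cyp4a12b against 1.77 to 1.85. That single WT array was thus above all 3 Selenbp1-KO arrays for both probes. The adjusted p was 0.00105 for Cyp4a12a and 0.000369 for Cyp4a12b when limma was run with a trend and robustly, and 0.049 for both without WT replicate 4. In the latter fit the WT and Selenbp1-KO arrays lie in different parts of the slide, so genotype and slide part cannot be told apart there, and 12522 probes passed adjustment.

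**Figure D2:**
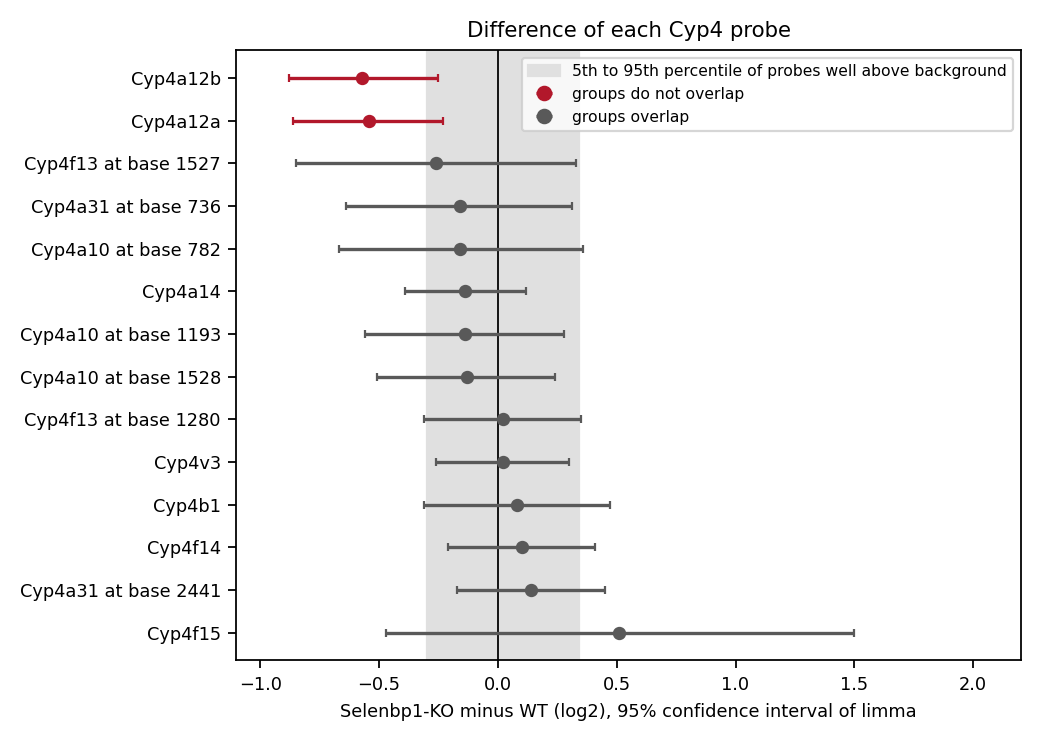
Difference between Selenbp1-KO and WT mice in log2 units (horizontal axis) for each Cyp4 probe, with its 95% confidence interval from limma; the gray band is the 5th to 95th percentile, −0.30 to 0.34, of the differences of the 28515 bright probes. Cyp4a12a and Cyp4a12b lie left of the band, Cyp4f15 lies right of it with an interval that includes 0, and the other points lie inside it.

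The signal of one Cyp4 gene relative to another on the same array is not changed by a factor that scales a whole array, such as the 75th percentile or the median. Quantile normalization can change it, and it moved the relative change of Cyp4a12a from −0.41 to −0.32 against Cyp4a10 and from −0.69 to −0.57 against Cyp4a31. Relative to Cyp4a12b, Cyp4a12a moved by 0.02 between genotypes, with array values of −0.51, −0.48 and −0.51 in WT kidneys and −0.40, −0.47 and −0.56 in Selenbp1-KO kidneys. Relative to Cyp4v3 it moved by −0.56, from 2.63, 2.51 and 2.60 in WT to 2.03, 2.06 and 1.97 in Selenbp1-KO mice. The relation to Cyp4a12b therefore stayed within the replicate spread, and the relation to Cyp4v3 did not. With the brightest probe of each gene, the groups did not overlap for 6 of the 8 other genes, for Cyp4a12a and for Cyp4a12b alike. The 2 exceptions were Cyp4a10, where the relative change of Cyp4a12a was −0.41, and Cyp4f15, where it was −1.06 with a wide spread. For Cyp4a31 and Cyp4f13 the separation depends on the probe. With Cyp4a31 at base 736 the groups overlapped, at −0.38 for Cyp4a12a and −0.40 for Cyp4a12b. They also overlapped with the dim probe of Cyp4f13 at base 1527, at −0.28 and −0.30. An exact permutation test of 3 against 3 arrays cannot give a p below 0.10, so these changes are descriptions. Cyp4a12a and Cyp4a12b already had groups that did not overlap, so the counts largely follow from that and add no separate support. Nor are the counts of the 2 genes separate from each other, since their probes ran alike. The share of other pairs of genes without overlap was not computed.

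**Figure D3:**
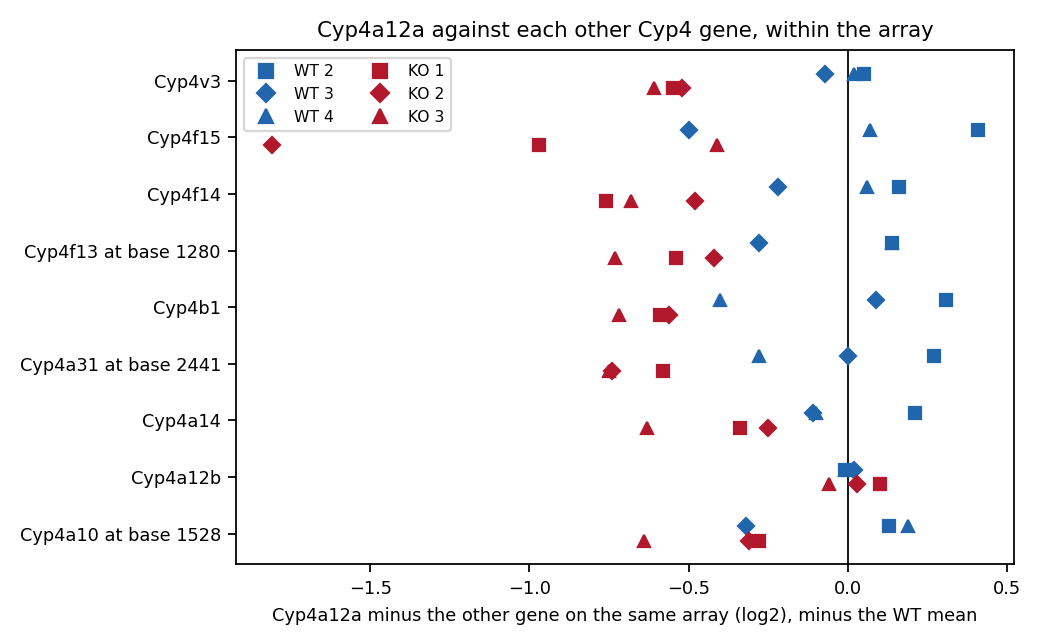
Log2 signal of Cyp4a12a minus that of the brightest probe of each other Cyp4 gene on the same array, shown relative to the WT mean (horizontal axis), with WT replicates in blue and Selenbp1-KO replicates in red. The genotypes are apart for 6 of the 8 genes outside the Cyp4a12 pair and overlap for Cyp4a10, Cyp4f15 and Cyp4a12b.

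Cyp4a10, a Ppara-inducible enzyme, had lower means in Selenbp1-KO mice by 0.13 to 0.16 on the log2 scale across its 3 probes, none of them called. The probe starting at base 1528 read 6.91, 7.02 and 6.55 in WT kidneys and 6.61, 6.64 and 6.82 in Selenbp1-KO kidneys. Its difference was −0.13 (standard error 0.15, limma adjusted p = 0.702), with an interval of −0.51 to 0.24. WT replicate 4 was the lowest of all 6 arrays and the other WT arrays the highest. The probes at bases 1193 and 782 also placed WT replicates 2 and 3 at the top and WT replicate 4 at the bottom. Their differences were −0.14 and −0.16 (limma adjusted p = 0.723 and 0.745). Within the slide part that held both genotypes, the sign turned: the Selenbp1-KO mean was above WT replicate 4 by 0.14, 0.17 and 0.23 for the probes at bases 1528, 1193 and 782. The direction for Cyp4a10 thus depends on WT replicates 2 and 3, which are alone on the other part.

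The 2 probes of Cyp4a31, a close relative of Cyp4a10, did not behave alike. The probe at base 736, which also lists Cyp4a10, read 3.79, 3.73 and 3.21 in WT kidneys and 3.34, 3.28 and 3.63 in Selenbp1-KO kidneys. This is the same array order as that of the Cyp4a10 probe at base 782, whose start it overlaps in the alignment above, and the Pearson r of the 2 over 6 arrays was 0.996. The probe at base 2441, which lists only Cyp4a31 and holds the hexamer, read 7.46, 7.41 and 7.72 in WT and 7.60, 7.77 and 7.64 in Selenbp1-KO mice. It was lowest on WT replicates 3 and 2, the arrays on which the other probe was highest, and its r with that probe was −0.861. This order holds only after scaling. Unscaled, the probe at base 2441 read 125400, 127300 and 109500 in WT and 110100, 104500 and 116100 in Selenbp1-KO mice, highest on WT replicates 3 and 2. The 75th percentile was also highest on these 2 arrays, at 750.6 and 711.1. The part of the scaling in the negative r was not tested. The differences between genotypes were −0.16 (standard error 0.20) for the first and 0.14 (standard error 0.13) for the second, with limma adjusted p = 0.711 and 0.602. With the slide part as a block these differences turned to 0.20 and −0.05, and after quantile normalization they were −0.20 and 0.02.

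Cyp4a14, the other classic Ppara target of the family, was read by a probe near the 5′ end of its target (base 78, mm9 chr4:115168609-115168668, minus strand). It read 0.79, 0.77 and 0.80 in WT kidneys and 0.63, 0.55 and 0.78 in Selenbp1-KO kidneys. Selenbp1-KO replicate 3 lay within the WT range and the other Selenbp1-KO arrays below it. The difference was −0.14 (standard error 0.11, interval −0.39 to 0.12, limma adjusted p = 0.534), and it was negative in each alternative, from −0.20 to −0.08. Relative to Cyp4a14 on the same array, Cyp4a12a was lower by 0.41 in Selenbp1-KO mice, without overlap, at 1.29, 0.97 and 0.98 in WT and 0.74, 0.83 and 0.45 in Selenbp1-KO mice.

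Cyp4b1, a relative known for activating toxins in lung and bladder, read 6.62, 6.52 and 7.05 in WT kidneys and 6.82, 6.79 and 6.81 in Selenbp1-KO kidneys. The Selenbp1-KO arrays were nearly identical and lay between WT replicate 4 above and the other WT arrays below. The difference was 0.08 (standard error 0.16, limma adjusted p = 0.842), and it turned to −0.24 with the slide part as a block. After scaling, the Cyp4a10 probe at base 1528 and Cyp4b1 ran opposite over the 6 arrays (r = −0.897, with shared arrays). WT replicate 4 was the lowest for the first and the highest for the second. Before scaling, Cyp4b1 was nearly level in WT kidneys, at 70150, 68700 and 68640, while the 75th percentile was 711.1, 750.6 and 519.1. The top place of WT replicate 4 for Cyp4b1 thus appears only after division by that percentile. On that array the summed signal of 21 proximal tubule markers was also the highest, 1910 times the 75th percentile, against 1650 to 1830 on the other arrays. The part of the scaling and of these markers in the Cyp4a10 and Cyp4b1 values was not tested.

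The Cyp4f genes on chromosome 17 were not called. Cyp4f13 (base 1280) read 1.31, 1.39 and 1.02 in WT kidneys and 1.28, 1.16 and 1.33 in Selenbp1-KO kidneys. Its difference was 0.02 (standard error 0.13, limma adjusted p = 0.955), within the replicate spread. The second Cyp4f13 probe, which targets an Ensembl transcript, was dim, well above background on all 3 WT arrays and 1 of the Selenbp1-KO arrays. Its difference of −0.26 (standard error 0.24) turned to 0.12 with normexp background correction. Cyp4f14, a leukotriene B4 hydroxylase, read −2.17, −2.11 and −2.36 in WT and −1.95, −2.22 and −2.18 in Selenbp1-KO mice, a difference of 0.10 (standard error 0.13, limma adjusted p = 0.738).

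Cyp4f15 had the widest spread of the members. It read −3.09, −2.51 and −3.04 in WT kidneys and −2.41, −1.57 and −3.12 in Selenbp1-KO kidneys. The highest arrays were Selenbp1-KO replicates 2 and 1, but the lowest was Selenbp1-KO replicate 3, so the groups overlapped. The difference was 0.51 (standard error 0.40, interval −0.47 to 1.50, limma adjusted p = 0.543). It was 0.89 and past the unadjusted threshold (limma adjusted p = 0.291) without Selenbp1-KO replicate 3, and 0.12 without Selenbp1-KO replicate 2, so its size depends on single arrays. Markers of fat tissue and urothelium, the lining of the renal pelvis, were highest on the 3 arrays where Cyp4f15 was highest, Selenbp1-KO replicates 2 and 1 and WT replicate 3. The summed signal of 7 fat markers (Adipoq, Plin1, Cidec, Cfd, Retn, Lep and Ucp1) was 127 times the 75th percentile on Selenbp1-KO replicate 2, 53.5 on replicate 1 and 22.6 on replicate 3, and 28.8, 49.8 and 13.1 on WT replicates 2, 3 and 4. The 7 urothelium markers summed to 38.6 on Selenbp1-KO replicate 2, 20.5 on replicate 1 and 13.1 on replicate 3, against 13.1 to 16.4 in WT. All 14 of these markers were well above background on each array and higher in Selenbp1-KO by the mean, and none was called. Without Selenbp1-KO replicate 3, the Selenbp1-KO array where both sums were lowest, 4 of the fat and 6 of the urothelium markers were called higher. In that fit 3019 of 56097 probes were called higher. Of the 17 alternatives, 1 called any urothelium marker and 4 called any fat marker. The part of these markers in the Cyp4f15 values was not tested.

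**Figure D4:**
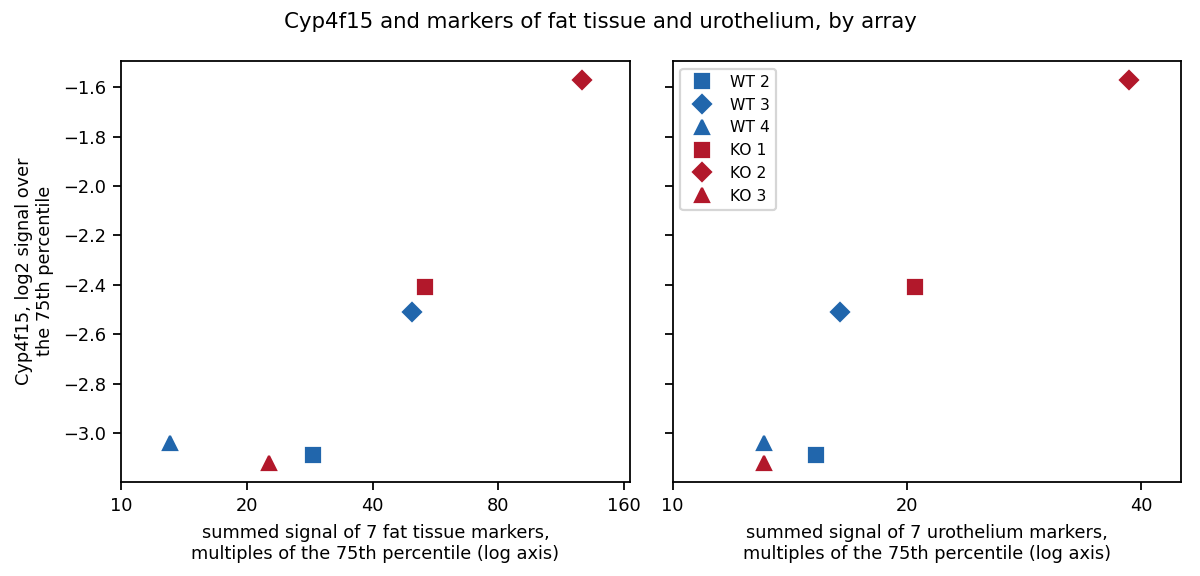
Level of Cyp4f15 as log2 signal over the array's 75th percentile (vertical axis) against the summed signal of 7 fat tissue markers (left) and 7 urothelium markers (right), as multiples of that percentile on a log axis, 1 point per array. Selenbp1-KO replicate 2 is highest on every axis, with Selenbp1-KO replicate 1 and WT replicate 3 next.

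Cyp4v3, the mouse relative of the human gene mutated in Bietti crystalline dystrophy of the retina, read −0.55, −0.77 and −0.82 in WT kidneys and −0.66, −0.68 and −0.74 in Selenbp1-KO kidneys. The Selenbp1-KO arrays lay inside the WT range. The difference was 0.02 (standard error 0.11, interval −0.26 to 0.30, limma adjusted p = 0.952), which leaves out a decrease as large as the estimates for Cyp4a12a and Cyp4a12b.

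**Figure D5:**
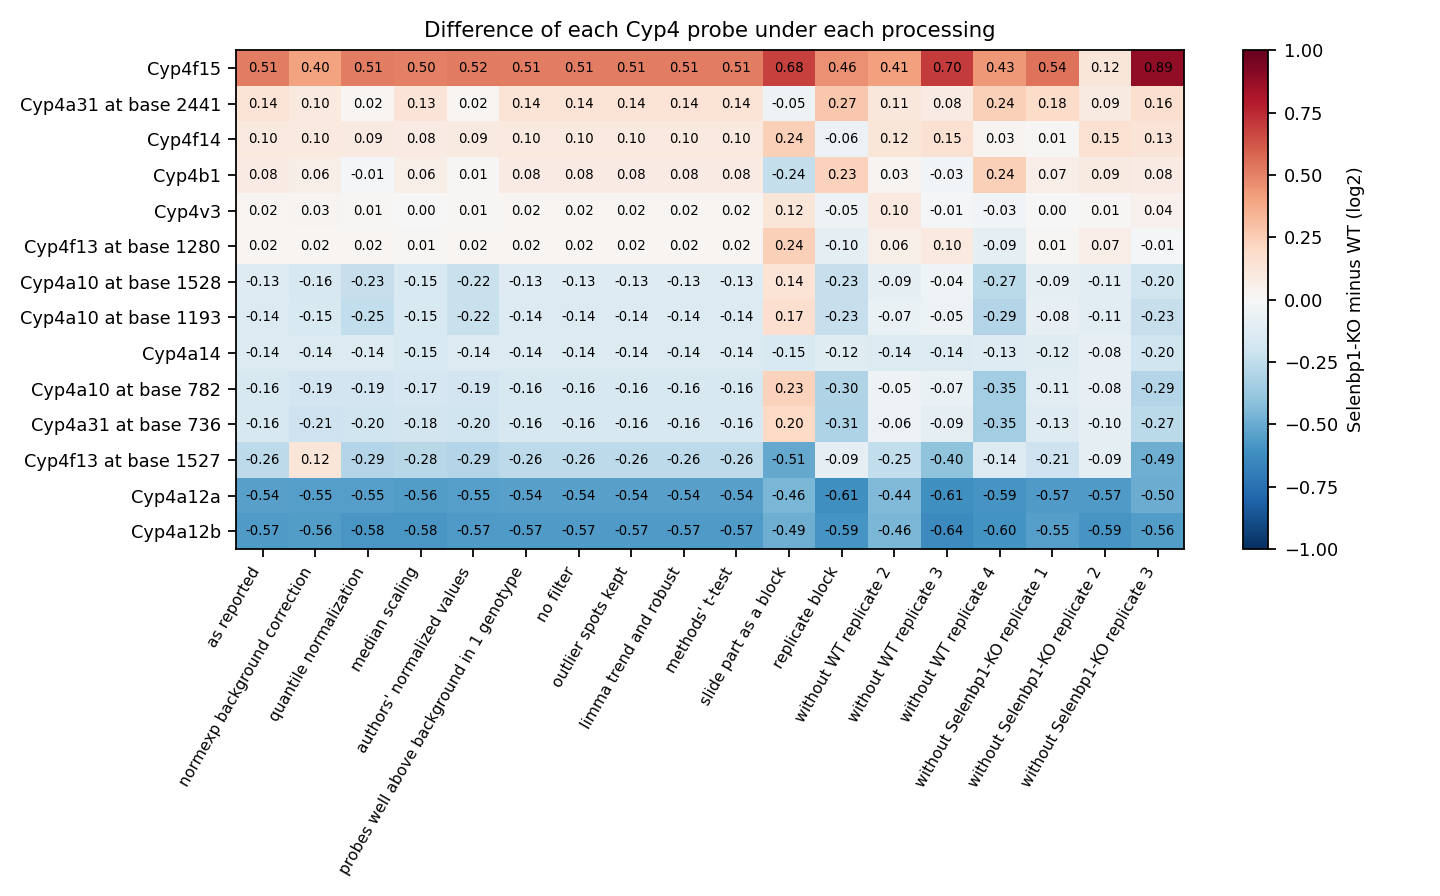
Log2 difference between Selenbp1-KO and WT mice for each Cyp4 probe (one per line) under each processing (one per column), with red for higher and blue for lower in Selenbp1-KO mice. Cyp4a12a and Cyp4a12b are between −0.64 and −0.44 throughout, and 10 of the 14 probes change sign in at least 1 of the 17 alternatives.

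The array holds 16 further probes for 12 other Cyp4 names, pseudogenes and an antisense RNA among them. Of these, 9 were not well above background on any array. The 6 bright probes among them belonged to Cyp4f16, Cyp4f17, Cyp4f18 and the pseudogene Cyp4b1-ps2, and none of them was called. Cyp4f16 (base 1634), for example, read −2.38, −1.89 and −2.29 in WT kidneys and −1.82, −2.15 and −1.83 in Selenbp1-KO kidneys. The probes of Cyp4a29 and Cyp4x1 (base 4061) were called higher, at a difference of 1.02 and 0.29, but neither was well above background on any array, so these carry no reading of a level.

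The steps around omega-hydroxylation were described by lists of genes, each gene by its brightest probe. Over all 37028 genes, 8.00% were called, 1.13% lower and 6.87% higher, and the median difference was 0.13, or 0.02 over the 19265 genes with a bright probe. Of 7 redox partners that pass electrons to P450 enzymes, only Cyb5r2 was called, and it was not well above background on any array. Por, the P450 reductase, had a difference of −0.04 and Cyb5a, cytochrome b5, of 0.17. None of 10 alcohol and aldehyde dehydrogenases was called in limma, with a median of 0.06 and, for Aldh3a2, the fatty aldehyde dehydrogenase, a difference of −0.06 (standard error 0.099). Genes of this list were called in 5 of the 17 alternatives. Among these, 2 were lower after quantile normalization, 1 lower in the authors' values and 1 higher with limma's trend and robust settings. None of 23 genes of peroxisomal dicarboxylic acid oxidation was called, and their median was −0.03, but 3 were called lower after quantile normalization and 2 in the authors' values. Over all 56097 tested probes, 2170 and 2105 were called lower in these 2 fits. Among the 23 genes, the acyl-CoA oxidase Acox3 differed by −0.10 (limma adjusted p = 0.66) by its brightest probe. Its groups did not overlap, at 3.95, 4.09 and 3.93 in WT kidneys and 3.91, 3.89 and 3.88 in Selenbp1-KO kidneys. The paper lists a larger decrease of Acox3 from its array data, and only this probe of the gene is given here. None of 8 genes of arachidonic acid epoxide formation and 20-HETE signaling other than the members was called (median −0.03), with Ephx2, soluble epoxide hydrolase, at −0.06.

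Among the 19 regulators of Cyp4 genes, 1 was called, Nr1i3 (the receptor CAR), higher by 0.58 (standard error 0.22, limma adjusted p = 0.279) with overlapping groups. Ppara read 4.44, 4.51 and 4.46 in WT kidneys and 4.17, 3.93 and 4.39 in Selenbp1-KO kidneys. The groups did not overlap, and the difference was −0.31 (standard error 0.14, limma adjusted p = 0.279). Its partner Rxra read 5.29, 5.27 and 5.28 in WT and 5.10, 5.16 and 5.17 in Selenbp1-KO mice, also without overlap, a difference of −0.14 (standard error 0.092, limma adjusted p = 0.449). Neither passed the unadjusted threshold here, but both calls depend on the processing. Ppara was called lower in 6 of the 17 alternatives, among them quantile normalization (−0.35, limma adjusted p = 0.538) and the authors' normalized values (−0.34, limma adjusted p = 0.553). Rxra was called lower in 3, quantile normalization (−0.23, limma adjusted p = 0.389), the authors' values (−0.20, limma adjusted p = 0.395) and the methods' t-test. Nr1i3 was called in 11 of the 17. Hnf4a, a transcription factor of liver and tubule, differed by −0.04 (limma adjusted p = 0.864).

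Of 26 other Ppara targets, none was called, although 20 had lower and 6 higher means in Selenbp1-KO mice. Of the 19265 genes with a bright probe, 8816 had lower means. Calls on this list also depend on the processing, with 4 genes called lower after quantile normalization, 3 in the authors' values and 5 with limma's trend and robust settings. Over all 56097 tested probes, 2170, 2105 and 1175 were called lower in these 3 fits. Within the slide part that held both genotypes, 14 of the 26 targets were below and 12 above WT replicate 4. The median difference of the 26 was −0.06 over all arrays, and the values ran from −0.44 for Creb3l3 to 0.18 for Fgf21, which was not well above background. Cpt1a, which admits fatty acids to mitochondria, read 5.39, 5.47 and 5.32 in WT kidneys and 5.20, 5.13 and 5.26 in Selenbp1-KO kidneys. The groups did not overlap, and it differed by −0.19 (standard error 0.10, limma adjusted p = 0.315). It was called lower in 5 of the 17 alternatives, at −0.28 after quantile normalization and −0.26 in the authors' values. The estimates for Cyp4a12a and Cyp4a12b were thus below those of all 26 genes and of Cyp4a10 and Cyp4a14, though the differences between genes were not tested.

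Since Cyp4a12a is androgen-dependent, genes with a known male bias in the mouse kidney were set beside it. Of 13 such genes, 12 had higher means in Selenbp1-KO mice, with a median of 0.21, and 1 was called, Hsd11b1, the glucocorticoid-activating reductase, higher by 0.53 (standard error 0.16, limma adjusted p = 0.279). Kap, the androgen-regulated kidney protein, had a difference of 0.22 (limma adjusted p = 0.505) and Slco1a1, an organic anion transporter, of 0.52 (adjusted p = 0.279). Kap turned to −0.11 after quantile normalization. In that fit 1 of the 13 genes was called higher and 1 lower. With limma's trend and robust settings 4 were called higher, and without WT replicate 4, 7 were. Over all 56097 tested probes, 2527, 6361 and 16597 were called higher in these 3 fits, and 2170 lower in the first. None of 6 female-biased genes was called, with a median of 0.04. For 2 of these, Cyp2a4 at −0.34 and Slc22a7 at 0.35, the groups did not overlap, as for 5209 of all 37028 genes. Set against WT replicate 4 alone, the WT array of their slide part, 4 of the 6 were lower and 2 higher in Selenbp1-KO mice. The median was then −0.34. The higher median of the male-biased list rests on WT replicates 2 and 3. Within the slide part that held both genotypes, the Selenbp1-KO mean was below WT replicate 4 for 8 of the 13 genes and above it for 5, with a median of −0.09, whereas Cyp4a12a and Cyp4a12b were lower there too. Hsd11b1 and Slco1a1 were among the 5, at 0.79 and 0.19. The summed signal of the 13 genes was 805, 789 and 994 times the 75th percentile in WT and 961, 978 and 931 in Selenbp1-KO mice, so WT replicate 4 was the highest array. Slc7a13 is also in the proximal tubule list, and Cyp2j5 and Cyp2j13 in the arachidonic acid list.

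Markers of the tubules were mostly not called. None of 22 proximal tubule genes was called (median −0.01), and the lowest and highest summed signals of the 21 measured on all arrays were 1650 and 1910 in WT and 1740 and 1830 in Selenbp1-KO mice. Within the slide part that held both genotypes, 18 of the 22 were below WT replicate 4 and 4 above it (median −0.1). After quantile normalization 18 were lower and 4 higher, with 2 called lower. In the authors' values 17 were lower and 5 higher, with 1 called lower. Over all 56097 tested probes, 2170 and 2105 were called lower in these 2 fits. In the distal nephron and collecting duct list, 1 of 13 genes was called, Pvalb, higher by 0.32, and in the glomerulus list 1 of 7, Synpo, higher by 0.29. Of 9 leukocyte markers, 3 were called higher in Selenbp1-KO mice, Lyz2 by 0.74, Cd3e by 0.64 and Cd68 by 0.36, and their summed signal was 9.65 to 11.7 times the 75th percentile in WT and at least 14.1 on every Selenbp1-KO array. None of 8 adrenal cortex and 10 liver genes was called. The part of leukocyte RNA in the Cyp4a12 differences was not tested.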

How the data were processed

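Kidney RNA of 3 WT and 3 Selenbp1-KO mice was hybridized to 6 one-color arrays, and the authors deposited the scanner output of each array. Its intensities are linear, background-subtracted and detrended by Feature Extraction (9.5.1.1 per the labels, 10.7.1.1 per the file headers), not normalized between arrays. The p-value of each spot against background was computed by that software before the authors deposited the files. The authors also deposited a table of quantile normalized intensities, used as an alternative. The array design differs between the labels and the headers, and the headers' 62976 spots were used. Coordinates are those of the files (mm9).

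Signals were divided by the 75th percentile of their array and taken as log2, without outlier spots, and probes with a background p under 0.05 on at least 1 array were tested with a two-sided limma fit (lmFit, eBayes; limma 3.58.1, R 4.3.3), with Benjamini-Hochberg adjustment over all 56097 tested probes. Genes were named through RefSeq accessions (GRCm38.p6), which matched 32994 probes. In lists, the probe with the highest mean stands for its gene. Alternatives were normexp correction (offset 50), quantile and median scaling, the authors' values, 2 other filters, outlier spots included, the methods' t-test, limma's trend and robust settings (statmod 1.5.0), slide part or replicate number as a block, each array left out, and averaging a gene's probes. The number of arrays limits the precision.

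The Cyp4 members and the gene lists were chosen with earlier results of these data known. Named are all member probes, Selenbp1 and its paralog, Ppara, Rxra, Hnf4a, list genes with p under 0.05, and the 10 genes most like Cyp4a12a and Cyp4a12b. Other list genes named, such as Acox3, Cpt1a, Por, Kap and Slco1a1, were chosen after their values were seen. Some genes covered by these rules are not reported here.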

Additional observations from a re-analysis of the deposited data

How the results depend on the processing

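The decrease of Cyp4a12a and Cyp4a12b kept its direction and its unadjusted call in all 17 alternatives. Of the 14 Cyp4 probes, 2 were called in each alternative except without Selenbp1-KO replicate 3, where Cyp4f15 made 3, and the range on leaving out each array was 2 to 3. All 14 stayed above an adjusted p of 0.05 except Cyp4a12a and Cyp4a12b in 2 alternatives, limma with the trend and robust settings and the fit lacking WT replicate 4, where 183 and 12522 probes of the array passed.

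Of 238 values of a probe under an alternative, 16 changed sign, none of them called, and the cause was not tested. With the slide part as a block these were Cyp4a10 at bases 1528, 1193 and 782 (0.14, 0.17 and 0.23), Cyp4a31 at bases 2441 and 736 (−0.05 and 0.20) and Cyp4b1 (−0.24). With the replicate number as a block they were Cyp4f13 at base 1280 (−0.10), Cyp4f14 (−0.06) and Cyp4v3 (−0.05). On leaving out each array, Cyp4b1 ran from −0.03 (negative without WT replicate 3) to 0.24, Cyp4v3 from −0.03 to 0.10 (negative without WT replicate 3, at −0.01, or 4) and Cyp4f13 at base 1280 from −0.09 to 0.10 (negative without WT replicate 4 and, at −0.01, if Selenbp1-KO replicate 3 was left out). Cyp4b1 was −0.01 after quantile normalization, and Cyp4f13 at base 1527 0.12 with normexp correction.

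The count of called probes, 4479, was 14616 with median scaling, 2841 among 28515 probes well above background, 7536 with trend and robust options and 18430 with the replicate block. On leaving out an array it ran from 2024 to 17585, with 2024 without WT replicate 2, 2627 without WT replicate 3, 17585 without WT replicate 4 and 2808 if Selenbp1-KO replicate 2 was left out. The count over the gene lists, 10, was 16 with normexp correction, 23 after quantile normalization, 22 in the authors' values, 27 with trend and robust options, 20 with the replicate block, and 6 when a gene's probes were averaged. On leaving out an array it ran from 6 without WT replicate 2 to 30 without WT replicate 4. The share of calls that were higher was 55.1% in the authors' values, 37.3% with the slide part as a block and 94.5% with the replicate block. The median difference of all probes was 0.17 with normexp and 0.00 after quantile normalization.

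WT and Selenbp1-KO replicates 2 and 3 share only a number. The correlation of their deviations was 0.171 and 0.187, and with the replicate block Cyp4a12a was −0.61 and Cyp4a12b −0.59. All 144 relative changes of Cyp4a12a or Cyp4a12b within the array moved by less than 1 SD under their alternatives, of which quantile normalization and the authors' values were chosen after seeing the data. Signal over background limits the dim Cyp4f13 probe and the 9 probes of other Cyp4 names that were not well above background on any array.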

Other observations

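The genes whose array profile was most like the mean of Cyp4a12a and Cyp4a12b were sought among 18360 genes well above background on all 6 arrays. The 10 nearest by Pearson r were Gemin5 (0.996), Clk1 (0.988), Dstyk (0.984), Pnisr and Klhl28 (both 0.983), Morc2a (0.982), Zfp119a and Bbs9 (both 0.980), and Fbxo34 and 4632415L05Rik (both 0.978). All 10 had lower means in Selenbp1-KO mice, by 0.10 to 0.36 on the log2 scale, which follows from choosing them by likeness to a profile whose genotypes do not overlap. With 6 arrays that share a slide, 54 genes had an r over 0.95. Of the other Cyp4 members, Cyp4a14 had an r of 0.59, Cyp4a10 of 0.378 and Cyp4a31 of −0.53, and of the regulators Rxra had 0.905 and Ppara 0.602.

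RefSeq promoter sequences (250 bases before to 50 after the start, GRCm38.p6) were at hand for 5 members, Cyp4b1, Cyp4f13, Cyp4f14, Cyp4f15 and Cyp4v3, with 8 promoters in all. On both strands, none of the 8 held the nuclear receptor core site AGGTCA, which 16.3% of 32851 promoters held. The DR1 element AGGTCANAGGTCA, which holds the core site at each end, was in 0.0396% of all promoters and in none of these 8. This says only that these letters are not in these windows.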
